A study of Saccharomyces cerevisiae with 51 samples.

Results

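Transcript levels and ATAC signal were followed for 10 genes of purine nucleotide synthesis and salvage in budding yeast (Saccharomyces cerevisiae). The genes were taken by name from a given list and joined between the tables by systematic name. All 10 were present among the 6840 genes of the metabolic cycle table, the 6821 genes of the rapamycin table and the 5193 rows of the ATAC table, and all 10 passed the filters on low values. They were ADE4, ADE8, ADE6, ADE1, ADE13, ADE17, ADE12, IMD3, IMD4 and AAH1.

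Purine nucleotides are built step by step on phosphoribosyl pyrophosphate until inosine monophosphate (IMP) is formed, and IMP is then turned into AMP or GMP. Salvage enzymes return free bases to the same pools, so that cells use less of the costly route from the start. In yeast the ADE genes of the route to IMP are known to be activated by the transcription factors Bas1 and Pho2 when adenine is scarce, and growing cells draw on purines for ribosomal RNA, DNA and ATP. Ade4 carries out the first committed step. Ade8, Ade6 and Ade1 act in the middle of the route, and Ade17 closes the ring to give IMP. Ade13 acts both on the route to IMP and in the AMP branch, where it follows Ade12. Imd3 and Imd4 are IMP dehydrogenases, which open the GMP branch, and Aah1 is the adenine deaminase that turns adenine into hypoxanthine.

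The cycle samples came from a continuous culture whose cells go through metabolic cycles in step. Each was labelled with 1 of 6 phases, which are RC start and RC mid (reductive charging), OX mid and OX late (oxidative), and RB start and RB late (reductive building). Wild type was strain CEN.PK, and the arp5 deletion was CEN.PK with ARP5::KAN, in which a resistance cassette replaces the gene for a subunit of the nucleosome remodeller INO80. Each of the 12 groups of genotype and phase had 2 RNA libraries. These (A and B) are technical replicates from separate RNA preparations of a single culture, so each genotype rests on 1 culture and the p-values per phase measure technical spread. The rapamycin samples were asynchronous mid-log cultures of strain BY4741 with wild-type ARP5, untreated or exposed to 30 nM rapamycin, which inhibits the growth-promoting kinase TORC1, over 45 or 90 min, in 2 biological replicates per group. The label of the control names rapamycin in its treatment text, but its title calls it the control, which was followed here. ATAC, which reads how open chromatin is to a transposase, was available for 12 libraries of each genotype of the cycle, with columns that show the genotype but not the phase.

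The RNA libraries of the cycle held 5.02 to 9.66 M reads on coding genes, and those of rapamycin 9.44 to 13.6 M, as recovered from the steps between low FPKM values. ARP5 had 46.4 to 55.7 FPKM in the wild-type libraries and was listed at 0 in the arp5 deletion, other than 0.0649 FPKM in 1 library of RB start. LEU2 and MET17, which are deleted in BY4741, stood at 0 to 0.181 FPKM in the rapamycin table, while HIS3, also disrupted in that strain, had 157 to 1059. The phase labels did not line up with transcript levels in the same way in the 2 genotypes. NSR1, a ribosome assembly gene that marks growth, was highest at OX mid in wild type (1463 FPKM) and at RC start in the arp5 deletion (673 FPKM). The DNA replication gene POL30 was highest at OX late in wild type (378 FPKM) and at RC mid in the arp5 deletion (221 FPKM). The stress gene HSP12 was highest at RC start in wild type (46930 FPKM) and at RB start in the arp5 deletion (30654 FPKM). Comparisons between genotypes at a phase therefore hold for the libraries as labelled.

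In wild type all 10 purine genes cycled and all 10 were highest at OX mid, the phase of high oxygen use. Among the 10, the swing was widest for AAH1, IMD4 and IMD3, and narrowest for ADE8. By the limma F test over the 6 phases, with a range of phase means of at least 1 on the log2(FPKM + 1) scale and an adjusted p under 0.05, 10 of 10 purine genes were called, against 62.1% of the 6510 genes tested. The median range was 3.62 on the log2 scale for the purine genes and 1.34 for all genes tested. OX mid was the highest phase for 37.1% of all genes tested. RC start was the lowest phase for 9 of the 10 genes, as for 23.9% of all genes tested, and RB late for AAH1, as for 10.1%.

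ADE4, the gene of the first committed step (YMR300C, chromosome XIII, 865559 to 867091, RefSeq build R64), shows the wild-type course that the group shares. Its 2 libraries had 18.3 and 17.9 FPKM at RC start, 39.7 and 42.4 at RC mid, 304 and 318 at OX mid, 107 and 98.6 at OX late, 67.7 and 70.6 at RB start, and 27.4 and 28.0 at RB late. The groups did not overlap, and the level was lower at each labelled phase after the peak. The peak was 17.2 times the lowest phase mean (log2 range 4.03, adjusted p = 3.45e-19, limma F test).

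The other genes of the route to IMP followed the same order of highest and lowest phase with unequal swings. ADE17 (YMR120C, chromosome XIII, 507502 to 509280), which closes the purine ring, had 43.8 and 39.9 FPKM at RC start, 152 and 159 at RC mid, 1187 and 1173 at OX mid, 701 and 731 at OX late, 376 and 361 at RB start, and 216 and 211 at RB late. This was the widest swing of the IMP genes, with a peak 28.2 times the lowest mean and a log2 range of 4.79. ADE1 (YAR015W, chromosome I, 169375 to 170295), the SAICAR synthetase gene, ran from a mean of 102 FPKM to 947, and ADE6 (YGR061C, chromosome VII, 611889 to 615965), the FGAR amidotransferase gene, from 36.8 to 312. ADE13 (YLR359W, chromosome XII, 844282 to 845730), the adenylosuccinate lyase gene, had 135 and 144 FPKM at RC start and 954 and 937 at OX mid. ADE8 (YDR408C, chromosome IV, 1288215 to 1288859), the GAR transformylase gene, moved least, from 113 and 111 FPKM at RC start to 248 and 241 at OX mid. Its range of 1.12 on the log2 scale was just past the minimum of 1, and its rise from RC start to OX mid dropped to 0.94 after quantile normalization.

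Of the genes of the branches after IMP and of salvage, IMD3, IMD4 and AAH1 had the deepest low points of the 10, and ADE12 did not. ADE12 (YNL220W, chromosome XIV, 234413 to 235714), the adenylosuccinate synthase gene, rose from 77.6 and 77.3 FPKM at RC start to 675 and 694 at OX mid. IMD3 (YLR432W, chromosome XII, 1002557 to 1004128) rose from 12.1 and 13.2 FPKM to 430 and 449 between the same phases. IMD4 (YML056C, chromosome XIII, 162194 to 164176) had 4.76 and 4.37 FPKM at RC start, 10.36 and 10.95 at RC mid, 428 and 444 at OX mid, 64.5 and 63.2 at OX late, 27.9 and 28.7 at RB start, and 6.44 and 6.74 at RB late. Its peak was 95.5 times its lowest mean, a log2 range of 6.30. AAH1 (YNL141W, chromosome XIV, 359596 to 360639) had 13.4 and 14.2 FPKM at RC start, 19.1 and 18.2 at RC mid, 1274 and 1305 at OX mid, 54.1 and 53.1 at OX late, 30.7 and 33.2 at RB start, and 8.92 and 11.3 at RB late. AAH1 was thus high in the 2 OX mid libraries and below 55 FPKM in each of the others, with a peak 127 times its lowest mean and a log2 range of 6.87. IMD4 and AAH1 fell off more steeply after OX mid than ADE17 did: the OX late mean was 63.8 FPKM for IMD4 and 53.6 for AAH1, and 716 for ADE17. At its lowest AAH1 rested on 45 reads in a library, so its low values carry more counting error than those of ADE13, which had at least 993 reads.

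**Figure D1:**
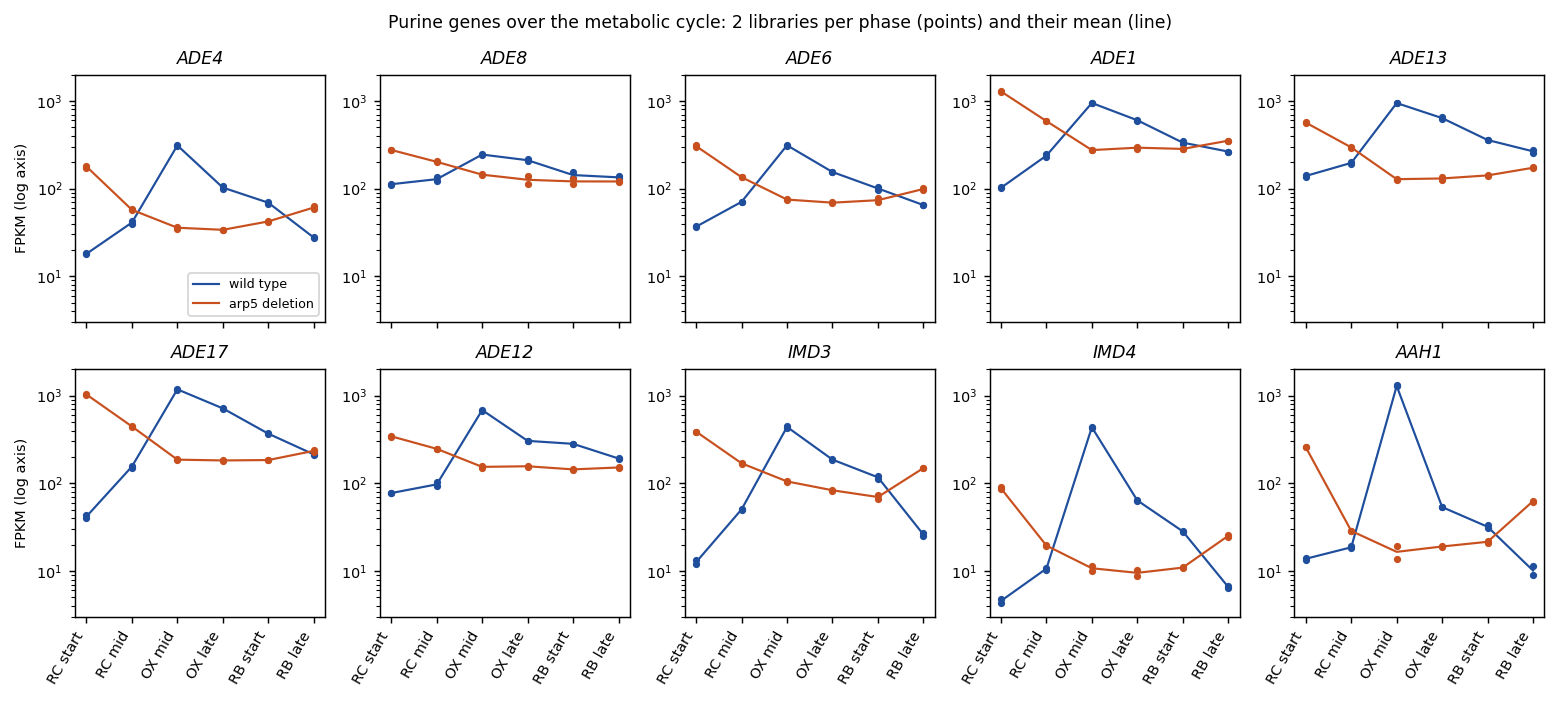
FPKM (log axis) of the 10 purine genes at the 6 labelled phases in wild type (blue) and the arp5 deletion (orange), with points for the 2 technical replicates of each phase and lines through their means. Each gene is highest at OX mid in wild type and at RC start in the arp5 deletion, from 245 FPKM for ADE8 to 1289 for AAH1 at the wild-type peak.

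In the arp5 deletion all 10 purine genes also cycled, but around another label and with a smaller swing for 9 of the 10. All 10 were highest at RC start as labelled, the phase at which 32.5% of all genes tested were highest in this strain. The limma F test called 10 of 10, against 32.3% of all genes tested. The median range was 2.29 on the log2 scale for the purine genes and 0.74 for all genes tested, whose median in wild type was 1.34.

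ADE4 in the arp5 deletion had 183 and 174 FPKM at RC start, 57.8 and 56.8 at RC mid, 34.9 and 36.8 at OX mid, 34.0 and 33.8 at OX late, 43.3 and 41.2 at RB start, and 62.6 and 59.2 at RB late. The course thus had its low point at OX mid and OX late, where the 2 pairs of libraries lay near each other. ADE17 had 1042 and 1019 FPKM at RC start and 185 and 180 at OX late, a peak 5.65 times the lowest mean. IMD4 had 89.9 and 85.4 FPKM at RC start and 8.79 and 10.3 at OX late, a peak 9.20 times the lowest mean. AAH1 had 259 and 257 FPKM at RC start and 13.8 and 19.3 at OX mid, a peak 15.6 times the lowest mean.

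Set side by side without regard to the phase labels, the peaks of the 2 genotypes were near each other for some genes and far apart for others. The wild-type peak was 5.00 times the arp5 deletion peak for AAH1 and 4.97 times for IMD4. It was 1.99 times for ADE12, 1.74 times for ADE4 and 1.67 times for ADE13. For ADE17, IMD3 and ADE6 the ratio was 1.14, 1.13 and 1.02. The peak was higher in the arp5 deletion for ADE8 (276 FPKM, against 245) and for ADE1 (1284 FPKM, against 947). The low points went the other way: the lowest phase mean was higher in the arp5 deletion for 9 of the 10 genes, at 69.8 FPKM against 12.6 for IMD3 and 182 against 41.9 for ADE17. The exception was ADE13, with 128 FPKM against 139. These ratios of peaks and lows are descriptions with no test, and each genotype rests on 1 culture.

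The range was smaller in the arp5 deletion by 3.22 on the log2 scale for IMD4, 2.97 for AAH1, 2.56 for IMD3, 2.29 for ADE17, 1.88 for ADE12 and 1.67 for ADE4. For ADE13 it was smaller by 0.62. It differed least for ADE8, at 1.12 in wild type and 1.19 in the arp5 deletion. Of 42 other genes of purine supply listed beside these, 39 also had a smaller range in the arp5 deletion. The smaller range was not particular to purine genes: the median over all genes tested was 1.34 in wild type and 0.74 in the arp5 deletion.

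**Figure D2:**
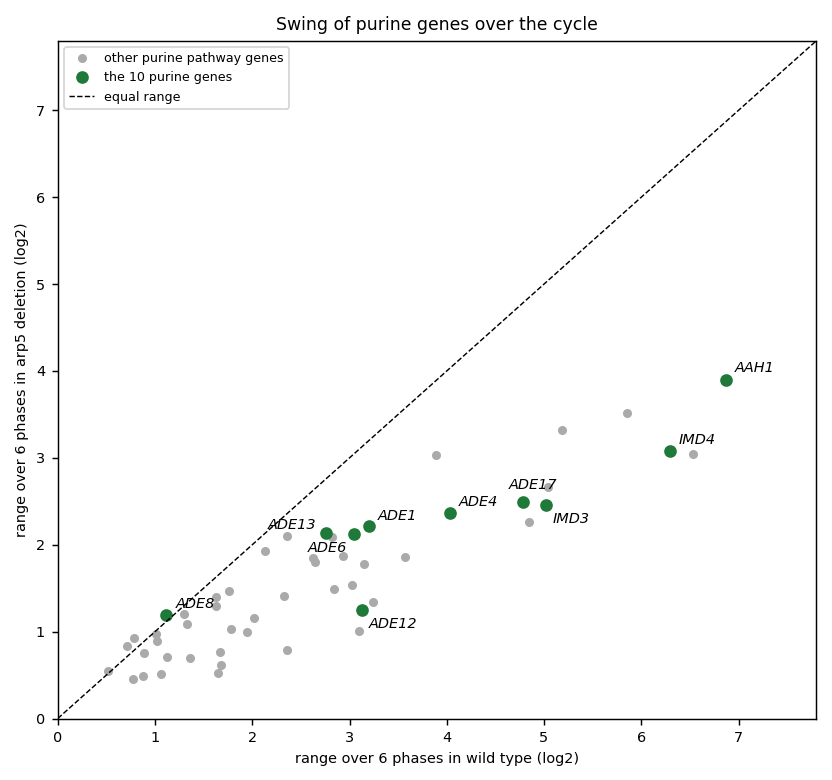
Range of the 6 phase means in wild type (horizontal) against the arp5 deletion (vertical), both on the log2(FPKM + 1) scale, for the 10 purine genes (green, named) and 42 other purine pathway genes (grey), with a dashed line at equal range. All named genes but ADE8 lie under the line, from ADE13 at 2.75 and 2.14 to AAH1 at 6.87 and 3.90.

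The 10 genes each took a different course over the phases in the arp5 deletion than in wild type when the difference itself was tested. The limma F test of the genotype by phase interaction called 10 of 10, against 74.0% of all genes tested. The range of the 6 genotype differences was 10.35 on the log2 scale for AAH1, 9.21 for IMD4, 7.25 for ADE17 and 6.89 for IMD3, and lowest for ADE8 at 2.05. The median was 5.87 for the purine genes and 1.81 for all genes tested. As an alternative added after the data were seen, the arp5 deletion phases were moved by 2 positions along the order of phases. RC start of the arp5 deletion then met the wild-type OX mid. Of the 10 genes 9 were still called, against 3434 of the 6510 genes tested. The ranges were smaller: 4.01 for AAH1, 3.47 for IMD4, 3.09 for ADE17 and 1.40 for ADE6. ADE8 was then not called, with a range of 0.27 (adjusted p = 0.228).

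At RC start all 10 genes were called higher in the arp5 deletion, where 19.2% of all genes tested were higher. ADE17 had 43.8 and 39.9 FPKM in wild type and 1042 and 1019 in the arp5 deletion, a log2 difference of 4.59 ± 0.04 (SE, adjusted p = 2.32e-21). IMD3 differed by 4.84 ± 0.06 and AAH1 by 4.13 ± 0.11, and ADE8 least, by 1.29 ± 0.09. At OX mid the direction was the opposite: 9 of 10 were called lower, against 22.0% of all genes tested. AAH1 had 1274 and 1305 FPKM in wild type and 13.8 and 19.3 in the arp5 deletion, a log2 difference of -6.22 ± 0.11 (SE, adjusted p = 2.59e-18). IMD4 differed by -5.22 ± 0.08, ADE4 by -3.08 ± 0.06 and ADE13 by -2.87 ± 0.05. ADE8 stayed short of the 2-fold minimum at -0.76 ± 0.09.

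Fewer of the genes were called in the other phases. At RC mid 4 of 10 were higher in the arp5 deletion, against 9.92% of all genes tested, namely IMD3 (1.73), ADE17 (1.51), ADE12 (1.34) and ADE1 (1.30 on the log2 scale). With all libraries scaled to an equal FPKM sum, all 10 were called higher at RC mid, against 1650 of the 6512 genes then tested. That scaling moved the median of all genes at RC mid to 0.53. At OX late 8 of 10 were lower, against 13.5% of all genes tested, with IMD4 at -2.63, ADE13 at -2.28 and ADE17 at -1.97, while ADE8 (-0.74) and ADE12 (-0.96) were not called. At RB start 2 of 10 were lower, ADE13 at -1.34 and IMD4 at -1.30, against 8.69% of all genes tested. With equal FPKM sums 4 were called lower there, against 632 of the 6512 genes then tested. At RB late 4 of 10 were higher, against 11.3% of all genes tested: AAH1 (2.52), IMD3 (2.47), IMD4 (1.79) and ADE4 (1.11).

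Within a strain, the step from RC start to OX mid had opposite signs. In wild type all 10 genes were called higher at OX mid, against 24.7% of all genes tested. In the arp5 deletion 9 of 10 were called lower, against 12.2%, with ADE8 not called at -0.93.

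Over the whole cycle, with the phase as the unit, none of the 10 genes was called between the genotypes by limma, against 1.52% of all genes tested, and 0 of 10 had an unadjusted p under 0.05. The log2 differences ran from -0.75 ± 0.65 (SE) for ADE13 to 0.85 ± 0.91 for IMD3. Log2 differences of these sizes were not detectable in this design, with SEs of 0.31 (ADE8) to 1.25 (AAH1) on the log2 scale. The plain mean of FPKM over the 6 phases was not tested. It was 236 in wild type and 67.7 in the arp5 deletion for AAH1, 424 and 239 for ADE13, and 415 and 513 for ADE1. The tested log2 differences of these genes were -0.16 ± 1.25, -0.75 ± 0.65 and 0.38 ± 0.69.

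The 10 courses resembled each other across the 12 genotype-by-phase means. The Pearson correlation of the centred log2 levels ran from 0.68 for ADE13 with IMD3 to 0.99 for ADE4 with IMD4 over 12 means, which share cultures and libraries. ADE4 lay nearest the mean course of the group (r = 0.991) and ADE13 farthest from it (r = 0.890). Each of the 10 genes is part of that mean, which raises its r. A search for like courses covered 4869 other genes with a standard name and at least 10 FPKM on average. It left out the related genes listed here and the genes used to check strain and phase, such as NSR1. The 5 courses most like the mean of the group were those of RPG1 (r = 0.988), PUS4 (0.986), PRT1 (0.986), CTP1 (0.982) and GLN4 (0.981). RPG1 and PRT1 encode subunits of the translation initiation factor eIF3, PUS4 a tRNA pseudouridine synthase, CTP1 a mitochondrial citrate carrier and GLN4 the glutaminyl-tRNA synthetase.

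Of the 42 other genes of purine supply, 36 cycled in wild type, against 62.1% of all genes tested. OX mid was the highest phase for 29, against 37.1%. In the arp5 deletion 26 cycled, against 32.3%, and 31 were highest at RC start, against 32.5%. Of the rest of the route to IMP, ADE2 ran from 59.7 to 374 FPKM in wild type and the bifunctional ADE5,7 from 47.8 to 343, both highest at OX mid, while ADE16 was not called as cycling. GUA1, the GMP synthase gene that follows IMP dehydrogenase, ran from 12.5 to 1248 FPKM. FCY2, the purine and cytosine permease gene, ran from 26.7 to 1596, and SHM2, the cytosolic serine hydroxymethyltransferase gene that supplies one-carbon units, from 49.5 to 1835. All 5 PRS genes of phosphoribosyl pyrophosphate synthesis cycled in wild type, PRS3 most, from 24.8 to 730 FPKM. BAS1, the activator gene, ran from 4.81 to 54.1 FPKM with its peak at OX mid, while PHO2 was lowest at OX mid, at 19.2 FPKM against 41.4 at RC start. GUD1, the guanine deaminase gene, was also lowest at OX mid, at 4.86 FPKM against 29.0 at RC start. GCN4, the activator of amino acid genes, was not called as cycling in either strain.

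Both pairs of isozyme genes changed their balance over the cycle. ADE16 encodes the other enzyme with the activity of Ade17, and its level ran against that of ADE17 in wild type: 223 and 239 FPKM at RC start and 123 and 128 at OX mid. Its range of 0.87 on the log2 scale was not called. The ratio of ADE17 to ADE16 in wild type was 0.167 and 0.197 in the 2 libraries of RC start and 9.18 and 9.65 in those of OX mid. In the arp5 deletion the mean ratio ran from 0.741 at RB start to 5.85 at RC start.

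IMD3 and IMD4 stood at nearly equal FPKM at OX mid in wild type, with ratios of 1.01 and 1.01, and at 2.78 to 4.74 times as much IMD3 on average in the other phases. In the arp5 deletion IMD3 exceeded IMD4 in all 6 phases, by 4.43 times at RC start to 9.83 times at OX mid. Over the cycle 1 of the 42 was called higher in the arp5 deletion, not far from the share of all genes tested (66 of 6510). This was IMD2, the paralogue known for induction when guanine nucleotides run low. It had 4.18 to 8.42 FPKM in wild type and 13.7 to 28.8 in the arp5 deletion, with no overlap (log2 difference 1.55 ± 0.23, SE, adjusted p = 0.0323, limma). The call did not hold after quantile normalization (1.30, adjusted p = 0.0503) or with any 1 phase left out (1.42 to 1.68, adjusted p = 0.066 to 0.126). The range of IMD2 over the 6 phases was 0.78 on the log2 scale in wild type and 0.93 in the arp5 deletion. The sources used here do not state how reads from similar IMD copies were assigned, and values of single IMD genes are uncertain to that extent.

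**Figure D3:**
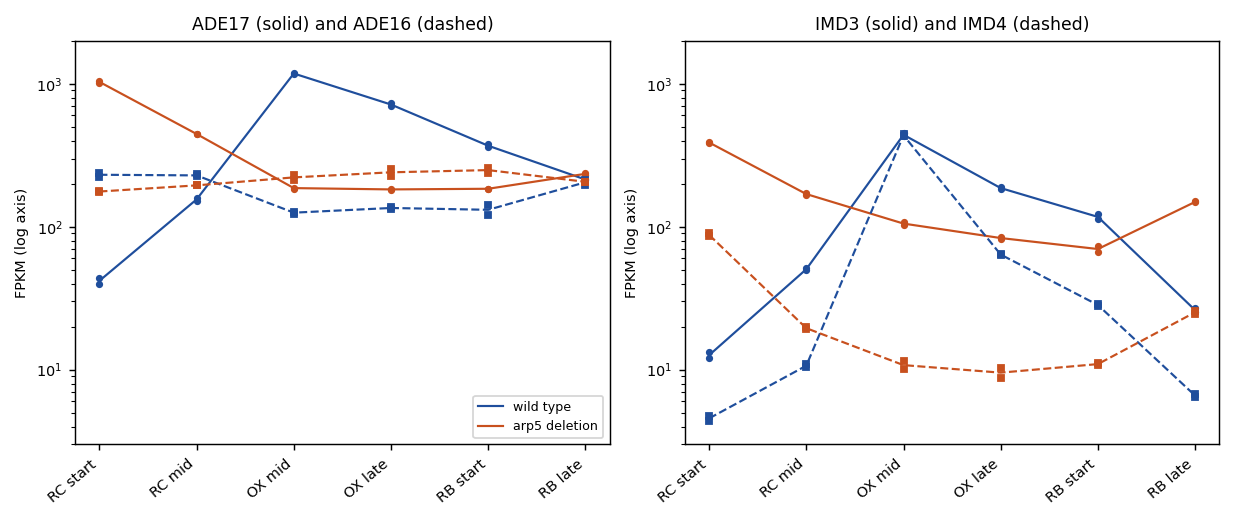
FPKM (log axis) at the 6 labelled phases for ADE17 (solid) and ADE16 (dashed), and for IMD3 (solid) and IMD4 (dashed), in wild type (blue) and the arp5 deletion (orange), with points for single libraries. ADE17 and ADE16 cross in both strains, while IMD3 and IMD4 meet only at the wild-type OX mid, at 440 and 436 FPKM.

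AAH1, IMD3 and IMD4 fell strongly in rapamycin at both times. Of the 7 ADE genes 4 were called lower at 45 min, by less, and none at 90 min, and with libraries scaled to equal FPKM sums none was called lower at either time. After 45 min 7 of 10 purine genes were called lower than in the control, against 13.7% of all genes tested called lower, and after 90 min 3 of 10 were lower, against 16.8%. The 2 comparisons share the control samples. The median log2 difference of the 10 genes was -1.36 at 45 min and -0.53 at 90 min, beside 0.04 and 0.02 for all genes tested.

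AAH1 had 332 and 311 FPKM in the control, 16.0 and 12.8 at 45 min, and 21.9 and 17.9 at 90 min. The treated values did not overlap the control and stood at 4.48% and 6.19% of it (log2 differences -4.40 ± 0.13, SE, adjusted p = 1.13e-07, and -3.95 ± 0.13, adjusted p = 1.35e-07, limma). IMD4 had 623 and 594 FPKM in the control, 49.6 and 42.9 at 45 min, and 42.1 and 35.6 at 90 min. IMD3 had 307 and 286 FPKM in the control, 53.6 and 47.6 at 45 min, and 57.2 and 48.4 at 90 min. Both were thus low at the 2 times, with log2 differences of -3.69 ± 0.10 and -3.94 ± 0.10 for IMD4 and -2.53 ± 0.10 and -2.47 ± 0.10 for IMD3. The ratio of IMD3 to IMD4 was 0.487 in the control, 1.09 at 45 min and 1.36 at 90 min. The paralogue IMD2 was at 34.2 FPKM on average in the control, 23.2 at 45 min and 12.3 at 90 min.

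The 4 ADE genes called lower at 45 min, all of the route to IMP, differed in their level at 90 min. ADE17 had 686 and 703 FPKM in the control, 269 and 282 at 45 min, and 578 and 611 at 90 min. ADE6 had 238 and 228 FPKM, then 73.9 and 79.7, then 159 and 164. ADE1 had 847 and 807 FPKM, then 319 and 313, then 556 and 584. ADE13 had 835 and 846 FPKM, then 375 and 376, then 414 and 428, and so stayed near its 45 min level. The log2 differences at 45 min were -1.59 ± 0.06 for ADE6, -1.39 ± 0.05 for ADE1, -1.33 ± 0.05 for ADE17 and -1.16 ± 0.04 for ADE13. ADE4 had 151 and 147 FPKM in the control and 78.4 and 73.4 at 45 min, which missed the 2-fold minimum at -0.96 ± 0.05, and 136 and 137 at 90 min.

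ADE8 and ADE12 were not called at either time. ADE8 had 340 FPKM in both control replicates, 254 and 270 at 45 min, and 440 and 476 at 90 min, so that its 90 min values lay above the control (log2 difference 0.43 ± 0.06, short of a call). With equal FPKM sums ADE8 was called higher at 90 min, at 1.08. Under that scaling 2229 of the 6340 genes tested were called higher at 90 min, and the median of all genes was 0.64. ADE12 had 472 and 443 FPKM in the control, 430 and 446 at 45 min, and 461 and 475 at 90 min. Its ranges overlapped between the control and each time, and its log2 difference was -0.06 ± 0.05 at 45 min (adjusted p = 0.324, limma). In the wild-type cycle ADE12 ran over a log2 range of 3.13.

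Between 45 and 90 min 2 of 10 genes were called higher, ADE17 by 1.11 ± 0.05 and ADE6 by 1.06 ± 0.06, against 6.30% of all genes tested. ADE1 (0.85), ADE4 (0.84) and ADE8 (0.81) were higher at 90 min without reaching the minimum, and after quantile normalization 4 genes were called, with ADE1 at 1.21 and ADE8 at 1.08. AAH1, IMD3 and IMD4 differed by 0.44, 0.06 and -0.25 between the times and were not called.

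The scaling of the libraries bears on the ADE genes in rapamycin. Scaling each library to an equal FPKM sum moved the median of all genes to 0.61 at 45 min and 0.64 at 90 min, changed the calls at 45 min from 709 higher and 865 lower to 1806 and 577, and left 3 of 10 purine genes called lower at 45 min: AAH1, IMD4 and IMD3. The directions of ADE8 and ADE12 at 45 min, and of ADE4, ADE6, ADE1 and ADE17 at 90 min, turned under that scaling. Those of AAH1, IMD3, IMD4 and ADE13 against the control kept their sign under each scaling tried.

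**Figure D4:**
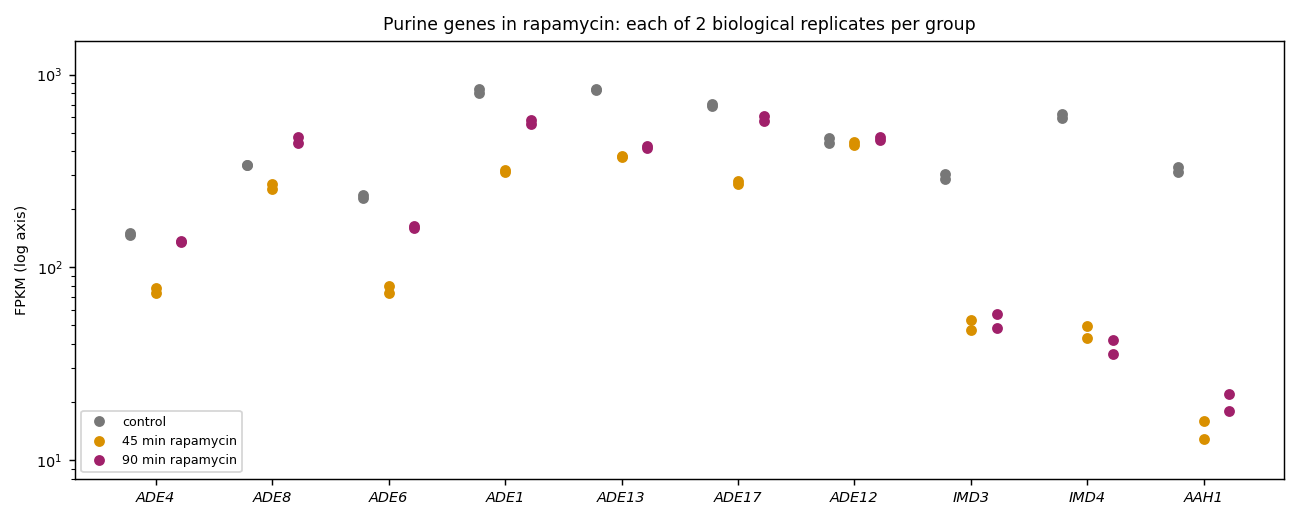
FPKM (log axis) of the 10 purine genes in each of 2 biological replicates of the control (grey), 45 min (orange) and 90 min (purple) in rapamycin. AAH1, IMD3 and IMD4 stay low at both times, at 19.9, 52.8 and 38.8 FPKM on average at 90 min, while ADE17 is at 276 FPKM at 45 min and 595 at 90 min.

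The other genes of purine supply divided in rapamycin. At 45 min 19 of 42 were called, 15 lower and 4 higher, beside 13.7% and 11.2% of all genes tested. At 90 min 23 were called, 14 lower and 9 higher, beside 16.8% and 18.2%. With equal FPKM sums the counts were 9 lower and 9 higher at 45 min, and 7 lower and 16 higher at 90 min. Over all 6340 genes tested with that scaling, 577 were called lower and 1806 higher at 45 min, and 627 and 2229 at 90 min. GUA1 went from 772 FPKM in the control to 39.9 at 45 min and 67.6 at 90 min. The salvage genes HPT1 and APT1, whose enzymes join hypoxanthine or guanine and adenine to phosphoribosyl pyrophosphate, went from 1334 to 267 and 114 FPKM and from 709 to 127 and 86.7 FPKM. All 5 PRS genes were called lower at both times, from -1.08 for PRS2 to -2.57 for PRS1 at 45 min on the log2 scale, but with equal FPKM sums PRS2 and PRS5 were called at neither time and PRS4 was not called at 90 min. BAS1 went from 53.1 FPKM in the control to 14.5 at 45 min (-1.80, called) and 36.0 at 90 min (-0.55, not called).

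The genes called higher included GUD1, from 8.42 FPKM in the control to 111 and 101, ISN1, the IMP nucleotidase gene, from 46.3 to 115 and 111, and GCV2, a glycine cleavage gene, from 57.9 to 166 and 395. HIS4, a histidine gene known to be activated by Bas1 and Pho2 and by Gcn4, went from 154 to 385 and 829 FPKM. SHM2 was called lower at 45 min, at 290 FPKM against 811 in the control (not with equal FPKM sums, at -0.88), and was at 1340 at 90 min, a rise of 2.21 on the log2 scale between the times. The ratio of ADE17 to ADE16 was 3.80 in the control, 1.28 at 45 min and 2.27 at 90 min, as ADE16 stood at 183, 215 and 263 FPKM. Levels in BY4741 and in CEN.PK come from tables scaled separately and were not tested against each other.

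ATAC values were compared between the genotypes over 12 libraries each, with all phases and technical pairs within a group, so the p-values are too small. The sources used here do not state which region was counted for each gene. ARP5 itself was lower in the arp5 deletion, by -0.51 ± 0.06 on the log2 scale. Of the 10 purine genes 2 were called higher, against 10.6% of all rows, and 1 lower, against 9.19% of all rows, at a minimum of 0.5 on the log2(normalized count + 1) scale. The median difference was 0.05 for the 10 genes and -0.02 for all rows.

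ADE1 had a lowest, median and highest normalized count of 246, 300.1 and 324 in wild type and 423, 514 and 639 in the arp5 deletion. The ranges did not overlap, and the mean was 1.76 times as high in the arp5 deletion (log2 difference 0.81 ± 0.06, SE, adjusted p = 4.56e-13, limma). ADE17 had 244, 286 and 336 in wild type and 372, 426 and 518 in the arp5 deletion, also without overlap (0.61 ± 0.06). ADE13 had 128, 157 and 183 in wild type and 82.7, 105 and 145 in the arp5 deletion, which overlapped (-0.55 ± 0.07). The remaining 7 genes overlapped between the genotypes and were not called, from AAH1 at -0.39 ± 0.17 to ADE12 at 0.19 ± 0.07. The share of all rows without overlap was not determined, so the lack of overlap does not set ADE1 and ADE17 apart. The related gene PRS4, for example, did not overlap either. AAH1 varied widely within wild type, from 34.7 to 117, and IMD3 from 116 to 281, in libraries that cover all phases.

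For the 3 genes called in ATAC, the plain mean of FPKM over the 6 phases was not tested. It was 415 in wild type and 513 in the arp5 deletion for ADE1, 446 and 377 for ADE17, and 424 and 239 for ADE13. Their tested RNA differences over the cycle were 0.38 ± 0.69, 0.10 ± 0.93 and -0.75 ± 0.65 on the log2 scale, none of them called. Of 41 other purine supply genes with ATAC values, 6 were called, a share no larger than that of all rows (1030 of 5193). By direction 5 were higher and 1 lower, against 10.6% and 9.19% of all rows. PRS4 (1.26), XPT1 (1.00), the xanthine phosphoribosyltransferase gene, SHM2 (0.77), PRS1 (0.57) and HPT1 (0.55) were higher in the arp5 deletion, and GCV1 (-0.90) was lower.

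**Figure D5:**
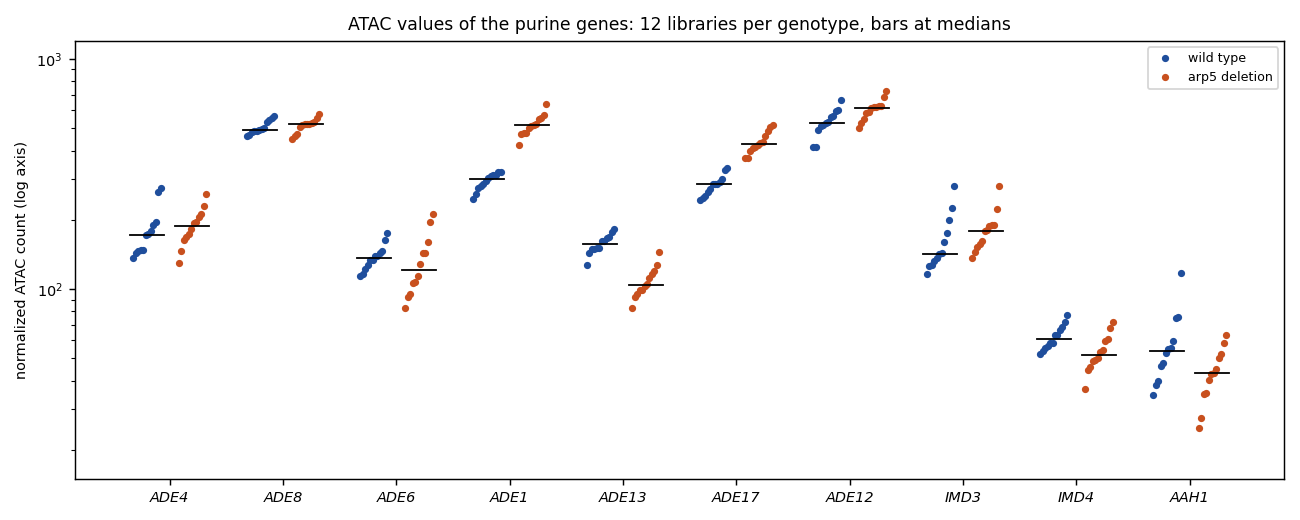
Normalized ATAC count (log axis) of the 10 purine genes in 12 libraries each of wild type (blue) and the arp5 deletion (orange), sorted by value, with bars at the medians. The medians are 300.1 and 514 for ADE1 and 286 and 426 for ADE17, and the 2 genotypes do not overlap for either gene.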

How the data were processed

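The authors deposited FPKM (fragments scaled by gene length and a factor per library) for the cycle and rapamycin RNA libraries, 1 table each, and a table of normalized ATAC counts, a coverage-like signal whose scaling is not given. The submitters' processing notes name Bowtie2 and sacCer3, with DESeq2 for RNA and Picard for ATAC. Per the labels' protocols, RNA was extracted with MasterPure and prepared with TruSeq mRNA. The sources used here do not state whether the counting used strand. Columns were matched to samples by name, the rapamycin columns by the labels' replicate numbers, and the ATAC columns to a genotype only.

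Low FPKM values fell on whole multiples of 1 read (tolerance 0.1 read) for 96.1% to 98.9% of those tested in the cycle libraries and 96.0% to 97.6% in the rapamycin libraries, which gave the depths. FPKM are not counts, so no count test was run. Values were tested as log2(FPKM + 1), or log2(normalized count + 1), with limma 3.58.1 in R 4.3.3 and an intensity trend, for 6510, 6333 and 5193 genes whose mean reached 1 FPKM (ATAC 10), with Benjamini-Hochberg adjustment over all of them. The pseudocount makes folds of low genes too small. A call needed an adjusted p under 0.05 and a log2 difference or range of at least 1 (ATAC 0.5). The cycle was fitted as 12 groups, the comparison over the cycle on 12 means of A and B with the phase as a block, and rapamycin as 3 groups. The steps were tested on simulated data.

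The 10 genes and the lists of related genes were chosen with earlier results of these data known. Named genes are the 10, ARP5, up to 4 per list with the widest range or largest rapamycin change, and the 5 nearest courses. IMD2, ADE16, BAS1, PHO2, GCN4 and GUD1 are named for their relation to the 10, and genes named for their ATAC or isozyme values were chosen after their values were seen. Gene names and positions come from the tables and RefSeq R64. Alternatives were the pseudocount, the filter, quantile normalization, equal FPKM sums, a replicate block and leaving out replicates or phases, and, added after seeing the data, moved phases and a block on the ATAC column number.

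Across genes, libraries A and B of a group had r of 0.988 or more. The letters did not pair libraries of different groups: over 66 pairs of groups, the differences A minus B correlated with r of -0.118 to 0.19, and 8 pairs were over 0.1.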

Additional observations from a re-analysis of the deposited data

Results flagged for a closer look

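The course over the phases differed between wild type and the arp5 deletion for each of the 10 purine genes in a test of the difference itself (limma F test of the interaction, adjusted p under 0.05), as it did for 74.0% of all genes tested. The range of the 6 genotype differences on the log2 scale was 10.35 for AAH1, 9.21 for IMD4, 7.25 for ADE17, 6.89 for IMD3, 6.32 for ADE4, 5.42 for ADE1, 5.06 for ADE6, 4.89 for ADE13, 4.28 for ADE12 and 2.05 for ADE8. All 6 phases enter as labelled, and NSR1, POL30 and HSP12 also peaked under other labels in the arp5 deletion. With the arp5 deletion phases moved by 3 positions, 10 of 10 were called, against 3764 of the 6510 genes tested. The ranges then ran from 1.52 for ADE8 to 6.59 for AAH1.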

How the results depend on the processing

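Of the values of the 10 genes under all alternatives, 3646 kept their direction and side of the threshold, 18 became called, 8 were no longer called and 38 changed sign. The cause was not tested. Most of these values come from refits without 1 cycle library, which was often not part of the comparison. Ranges of the F tests also cannot change sign. The count of unchanged values is therefore largely fixed in advance and does not measure robustness. The pseudocount, the filter and the replicate block on the letters A and B (10 of 10 genes called in both cycling tests and in the interaction) moved no count of calls past 1.5 times. No paired analysis was possible for rapamycin because its groups share no replicate numbers. The ATAC columns carry the numbers 1 to 12 in both genotypes, and the labels do not say what these mark. Deviations of columns with the same number correlated with r of 0.0342 to 0.386, over 0.1 for 10 of 12, and 2 of 12 wild-type columns correlated best with their own number. A replicate block on the column number, chosen after seeing the data, called 1030 rows and 3 of the 10 genes, as many as without it. Equal FPKM sums called 10 genes at RC mid, 4 at RB start and 3 at 45 min of rapamycin (against 4, 2 and 7), and 2383 genes in all at 45 min (against 1574). Among all genes, that scaling called 1959 at RC mid and 1266 at RB start (against 1366 and 1219). Quantile normalization called 4 of the 10 between 45 and 90 min (against 2). Over the cycle 99 genes of all were called, and 65 with quantile normalization, 186 with equal sums, 196 without the phase block, 323 with 24 libraries and phase and replicate block, and 289 and 267 with the arp5 deletion phases moved by 2 and 3 positions. Leaving out a phase or a replicate left 1 (without RB start) to 74; none of the 10 genes was called in any of these. Leaving out 1 library gave 2 to 3 of the 10 at RB start (ADE17 called at -1.03 without wild-type replicate B and -1.001 without arp5 deletion replicate A), 7 to 8 at 45 min (ADE4 at -1.01 without 45 min replicate 1) and 3 to 4 at 90 min (ADE13 at -1.005 without control replicate 1 and -1.02 without 90 min replicate 2). 

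Equal sums turned these log2 values: at RB late ADE8 to 0.19 and ADE12 to 0.0087 (with quantile normalization 0.13 and 0.046), over the cycle ADE4 to 0.19, ADE12 to 0.13 and AAH1 to 0.11, at 45 min ADE8 to 0.23 and ADE12 to 0.54 (quantile 0.0036), and at 90 min ADE4 to 0.52, ADE6 to 0.13, ADE1 to 0.12 (quantile 0.038) and ADE17 to 0.43 (quantile 0.34). IMD3 between 45 and 90 min turned to -0.020 with quantile normalization. Leaving out a phase or a replicate gave, over the cycle, -0.75 to 0.51 for ADE4, -0.25 to 0.16 for ADE8, -0.42 to 0.59 for ADE6, -0.27 to 0.82 for ADE1, -0.79 to 0.65 for ADE17, -0.61 to 0.24 for ADE12, -1.31 to 0.54 for IMD4 and -1.02 to 1.05 for AAH1. Leaving out a column gave -0.013 to 0.078 for ADE12 at 90 min and -0.060 to 0.18 for IMD3 between the times. Equal sums moved the split of higher and lower calls from 1252 and 1098 to 1729 and 660 at RC start, from 646 and 720 to 1650 and 309 at RC mid, from 1413 and 1432 to 2097 and 1040 at OX mid, from 737 and 708 to 1162 and 410 at RB late, from 486 and 794 to 700 and 679 for OX mid against RC start in the arp5 deletion, from 66 and 33 to 173 and 13 over the cycle, and from 1151 and 1065 to 2229 and 627 at 90 min.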
